A study of Mus musculus with 17 samples.

Results

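In mouse testis, 7 coding transcripts with low mRNA counts without MAEL, several of them copies of each other by size and counts, are described across 17 sequencing libraries. They are among 37991 Ensembl transcripts in the deposited tables, of which 18286 have a coding size. They were chosen by the measured fall of their mRNA counts in Mael-/- against wild-type testis, by their closeness in size and counts, and for some of them by their level in anti-MAEL over IgG immunoprecipitates. Those 2 contrasts are therefore given as descriptions, with no test. The ribosome footprints and small RNAs, which the choice did not use, are tested. Footprints come from the same mRNAs, so their test is not independent of the choice by mRNA fall. All samples were testis of the 129SvJae mouse strain, and the labels give no age. Mael-/- testis and wild-type testis each gave 2 mRNA libraries, 2 libraries of ribosome footprints of 26 to 34 nt and 2 libraries of small RNA of 15 to 50 nt. Immunoprecipitation from wild-type testis with anti-MAEL yielded long RNA in 2 libraries, RNA of 50 to 150 nt in 1 and RNA of 15 to 50 nt in 1, and rabbit IgG yielded 1 library of long RNA. The labels do not state whether the replicates are separate animals, so each p-value reflects the spread between the libraries alone, which may be technical.

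As background, MAEL (Maelstrom) is a protein of germ cells that works in the piRNA pathway, where small RNAs bound to PIWI proteins silence transposons and other transcripts. In the testis the protein is concentrated in the nuage, the granules beside the nucleus where piRNA precursors are handled. Male mice without it are sterile. Ribosome footprints are the stretches of mRNA that translating ribosomes shield from nuclease, so their counts report the use of an mRNA in protein synthesis. Transcripts that exist as several near-identical copies are difficult for short reads, because a read can match each copy equally well.

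Total counts ranged from 4130509 to 15372210 in mRNA libraries, from 1668197 to 5009051 in footprint libraries and from 4831638 to 44416966 in small RNA libraries. In each of these assays both Mael-/- libraries held fewer counts than the wild-type library with the same letter. Of the immunoprecipitates, the anti-MAEL long-RNA libraries summed to 5747210 and 10863053 counts and the IgG library to 7785650. The transcript IDs, Mael's own among them, could not be paired with gene symbols here, so the genotype labels and the cell makeup of the tissue were not analysed here, and no gene name or role is given to the 7 transcripts. In bulk testis, fewer cells of a type and less RNA per cell cannot be told apart, and that holds for every difference between genotypes below.

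The 7 transcripts fall into 4 coding sizes. ENSMUST00000084677 and ENSMUST00000098119 are a pair of 1710 nt with a coding part of 550 nt. ENSMUST00000108026 and ENSMUST00000115912 are 4130 nt long, ENSMUST00000107995 is 203 nt shorter at 3927 nt, and these 3 share a coding size of 1289 nt. ENSMUST00000107981 is 3348 nt long with a coding part of 963 nt, and ENSMUST00000107979 is 4146 nt long with a coding part of 1295 nt. They are called below by coding size.

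Copies of equal size were largely 1 measurement, not several. The 2 transcripts of the 550-nt pair had identical counts in 11 of 17 libraries, namely all 8 mRNA and footprint libraries and the 3 long-RNA immunoprecipitates. ENSMUST00000108026 and ENSMUST00000115912 were identical in the same number of libraries, again in all 8 mRNA and footprint libraries. ENSMUST00000107995 matched ENSMUST00000115912 exactly in 8 of 17 libraries, and differed from it in mRNA by 4 of 1014 counts in 1 wild-type library and 2 of 459 in the other. The 1295-nt transcript matched ENSMUST00000115912 in 2 libraries only. Such identity is uncommon in the table: among 9974 coding transcripts with at least 100 mRNA counts in all, 128 shared all 4 mRNA counts with another, which is 1.28%. The sources used here do not give how the authors assigned reads that match several transcripts, so the copies may share reads, and identical copies are counted once below.

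All 7 transcripts stood at a small part of their wild-type mRNA level in Mael-/- testis. The 550-nt pair had 65 and 51 mRNA counts in Mael-/- libraries, against 1211 and 503 in wild-type libraries. As counts per 1000000 library counts (CPM) that is 11.3 and 12.3 in Mael-/-, against 78.8 and 74.7 in wild type, so the groups lay far apart and replicates lay close. Both Mael-/- values were below both wild-type values for each of the 7, as they were for 26.4% of 12198 coding transcripts with at least 20 mRNA counts in all. The fitted log2 fold change of the pair was -2.98. The 963-nt transcript had the most mRNA counts of the 7 in every library, with 18.8 and 22.5 CPM in Mael-/- and 91.5 and 96.8 CPM in wild type, and it had the smallest fitted log2 fold change of the 7, -2.47.

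The longer copies gave similar values. ENSMUST00000108026 and ENSMUST00000115912 had 12.7 and 10.2 CPM in Mael-/- mRNA, against 66.0 and 68.2 CPM in wild type. ENSMUST00000107995 had the same Mael-/- values and 65.7 and 67.9 CPM in wild type. The 1295-nt transcript had 10.4 and 7.02 CPM in Mael-/-, against 51.4 and 51.7 CPM in wild type, and showed the widest spread between Mael-/- replicates relative to its mean. The fitted log2 fold changes were -2.82 for each transcript of 1289 nt and -2.83 for the one of 1295 nt. Over 11181 coding transcripts fitted, the median was 0.21, and between 98 and 337 transcripts had a lower value than a given member. The choice of the members had no fixed threshold, so these positions are a description of where it fell.

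Divided by coding length, the order of the mRNA levels changed. The 550-nt pair was highest in wild type, at 139.5 ± 5.23 CPM per kb (SD, n = 2), and stood level with the 963-nt transcript in Mael-/-, at 21.5 ± 1.33 and 21.4 ± 2.73 CPM per kb. The 963-nt transcript followed in wild type at 97.8 ± 3.90 CPM per kb. ENSMUST00000108026 and ENSMUST00000115912 had 8.87 ± 1.39 CPM per kb in Mael-/- and 52.0 ± 1.21 in wild type, and the 1295-nt transcript 6.74 ± 1.87 in Mael-/- and 39.8 ± 0.163 in wild type. Within each mRNA library the 1295-nt transcript had fewer counts than ENSMUST00000115912. The ratio of their counts was 0.822 and 0.690 in Mael-/- and 0.779 and 0.758 in wild type. The Mael-/- ratios thus lay on either side of the wild-type ones.

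**Figure D1:**
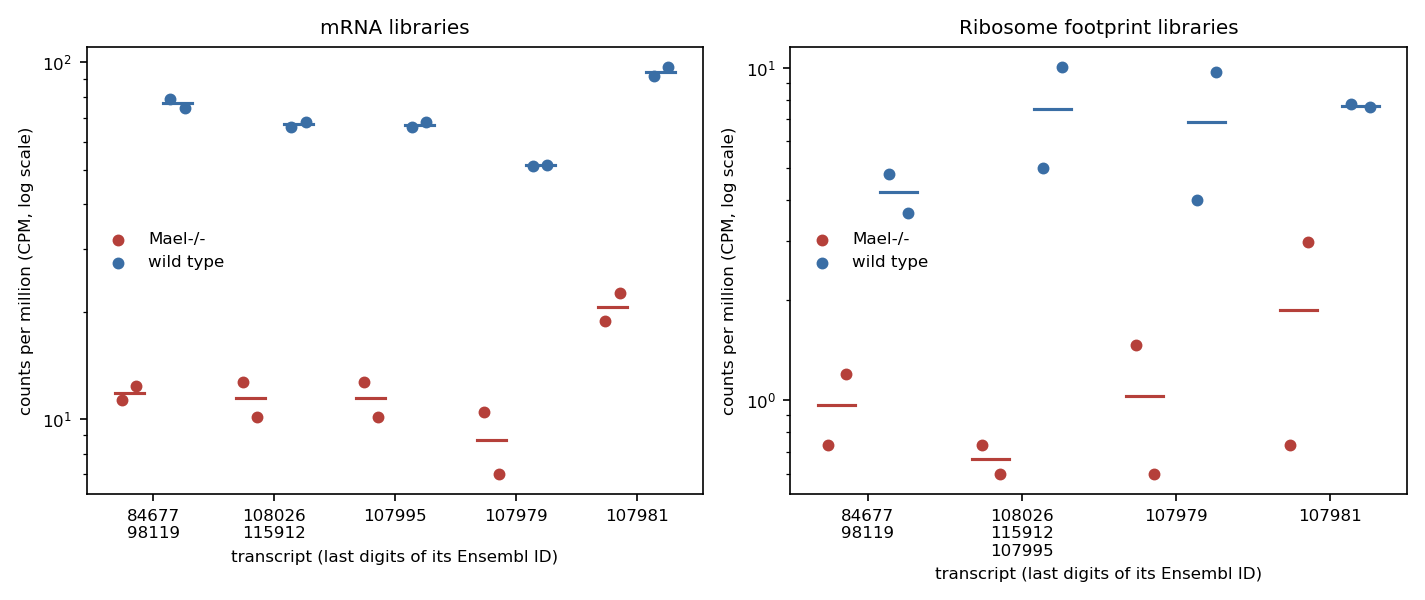
CPM levels of the 7 transcripts (log scale) in mRNA libraries (left) and ribosome footprint libraries (right), with Mael-/- in red and wild type in blue. Each point is 1 library, each bar the mean of 2, identical copies are drawn once under the last digits of their Ensembl IDs, and in every case both Mael-/- points lie below both wild-type points.

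Ribosome footprints on these transcripts were few in either genotype and fewer in Mael-/- testis. The 550-nt pair held 2 and 2 footprint counts in Mael-/- libraries, against 24 and 12 in wild-type libraries. ENSMUST00000108026, ENSMUST00000115912 and ENSMUST00000107995 were identical in all 4 footprint libraries, with 2 and 1 counts in Mael-/- and 25 and 33 in wild type. The 963-nt transcript held 2 and 5 counts in Mael-/- and 39 and 25 in wild type, and the 1295-nt transcript 4 and 1 in Mael-/- and 20 and 32 in wild type. Relative to library totals, both Mael-/- values lay below both wild-type values for every member, which also held for 29.2% of 10751 coding transcripts with at least 20 footprint counts in all.

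Relative to library size, wild-type footprint levels ran from 3.65 CPM for the 550-nt pair to 10.03 CPM for the 1289-nt group, and Mael-/- levels from 0.599 to 2.997 CPM. Summed over the libraries of a genotype, the 1289-nt group had 3 counts in Mael-/- and 58 in wild type. With the library totals taken into account, its ratio of Mael-/- to wild type was 0.0975, with an exact 95% interval of 0.0195 to 0.299 that covers counting error only. The ratio was 0.209 for the 550-nt pair (0.0541 to 0.584), 0.206 for the 963-nt transcript (0.0797 to 0.450) and 0.181 for the 1295-nt transcript (0.0565 to 0.451). The 4 intervals overlap. The members' footprint falls were not tested against each other, so no ranking by their size is given.

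In the fit over all 9783 coding transcripts that passed the low-count filter, the 1289-nt group fell by 3.47 ± 0.734 on the log2 scale (SE; edgeR quasi-likelihood test, Benjamini-Hochberg adjusted p = 0.00406). The 1295-nt transcript fell by 2.64 ± 0.732 (edgeR, adjusted p = 0.0176). The fall of the 963-nt transcript gave a log2 fold change of -2.31 ± 0.611 (edgeR, adjusted p = 0.0136) and that of the 550-nt pair -2.28 ± 0.704 (edgeR, adjusted p = 0.0286). As the background, 20.3% of all fitted transcripts were called lower in Mael-/- footprints and the median log2 fold change was 0.06. Every member passed the filter, at 3.32 CPM, through the wild-type libraries alone, with 0 Mael-/- libraries above it. The filter was thus met in 1 genotype only, and the number of calls is not read as support. The members were also chosen for an mRNA fall, with log2 fold changes of -2.98 to -2.47, so a footprint fall is not independent of that choice. Whether footprints changed beyond the mRNA was not tested.

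With no filter on low counts, the adjusted p (edgeR) was 1.54e-05 for the 1289-nt group and 0.0312 for the 550-nt pair. Under DESeq2 only the 1289-nt group stayed past the threshold, at an adjusted p of 0.0141, and the other members had adjusted p-values of 0.0501 to 0.189. Over the whole table, DESeq2 called 1441 of 9783 transcripts lower. Single libraries decided several calls. Without wild-type replicate b the 963-nt transcript alone was called (edgeR, adjusted p = 0.0428), while the 1289-nt group had an adjusted p of 0.0570 and the 1295-nt transcript 0.211. Without Mael-/- replicate a the 963-nt transcript lost its call (edgeR, adjusted p = 0.117), as it did without wild-type replicate a (adjusted p = 0.0554). The 550-nt pair lost its call without Mael-/- replicate a, Mael-/- replicate b or wild-type replicate b (edgeR, adjusted p = 0.0988 to 0.257) and was not fitted without wild-type replicate a. The direction was the same in each of these fits.

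**Figure D2:**
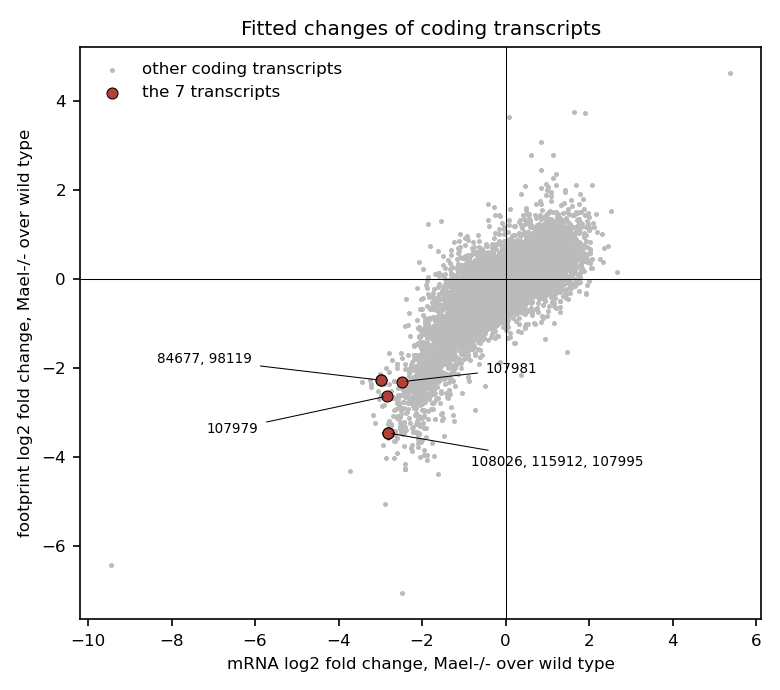
Fitted log2 fold change of Mael-/- over wild type in mRNA (horizontal) and ribosome footprints (vertical) for every coding transcript fitted in both assays (grey), with the 7 transcripts in red and labelled by the last digits of their IDs. The 7 lie at the lower left, between -2.98 and -2.47 in mRNA, which chose them, and between -3.47 and -2.28 in footprints.

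In wild-type testis the 7 transcripts carried few footprints for their mRNA. The ratio of footprint CPM to mRNA CPM was 0.0608 and 0.0488 in wild-type libraries a and b for the 550-nt pair, and 0.0851 and 0.0784 for the 963-nt transcript. The longer copies varied more between libraries, with 0.0757 and 0.147 for ENSMUST00000108026 and ENSMUST00000115912 and 0.0777 and 0.188 for the 1295-nt transcript. On the log2 scale the ratio of mean levels was -4.03 for the 550-nt pair, -3.53 for the 963-nt transcript, -3.08 for ENSMUST00000108026 and -2.82 for the 1295-nt transcript, against a median of -0.20 over 8899 coding transcripts with at least 5 CPM of wild-type mRNA. Of those transcripts, 1.24% had a lower ratio than the 550-nt pair and 4.53% a lower one than the 1295-nt transcript. These ratios are a description, because the mRNA level entered the choice, and they cover wild type only. In Mael-/- libraries 1 to 5 footprint counts per transcript are too few for a ratio to be read.

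Long RNA of the 7 transcripts was abundant in anti-MAEL immunoprecipitates, which also entered the choice. The 550-nt pair had 7788 and 9971 counts in the anti-MAEL libraries, against 183 in the IgG library, or 1355 and 917.9 CPM against 23.5 CPM. Its ratio to IgG was 57.7 in anti-MAEL library a (exact 95% interval 49.8 to 67.1, counting error only) and 39.1 in library b (33.7 to 45.4), with a mean of 48.4. Of 7520 coding transcripts with at least 100 counts over these libraries, 0 had a higher mean ratio. The 963-nt transcript had 1700 and 1250 CPM with anti-MAEL, against 52.0 CPM with IgG, a mean ratio of 28.4 that 10 transcripts exceeded.

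The longer copies stood lower in anti-MAEL and, for the 1289-nt group, higher in IgG. ENSMUST00000108026 and ENSMUST00000115912 had 786.5 and 629.0 CPM in the anti-MAEL libraries, against 94.1 CPM with IgG, a mean ratio of 7.52. ENSMUST00000107995 had a mean ratio of 7.61. The 1295-nt transcript had 603.2 and 454.3 CPM in the anti-MAEL libraries, against 53.3 CPM with IgG, a mean ratio of 9.92. For each of the 7, both anti-MAEL libraries lay above the single IgG library, as they did for 13.7% of 11040 coding transcripts with at least 20 counts in all, and the median log2 ratio over the 7520 transcripts was -0.34. Per kb of transcript the 550-nt pair had 792.5 and 536.8 CPM with anti-MAEL, and ENSMUST00000108026 had 190.4 and 152.3 CPM, so the pair stood above the longer copies by more than the spread between the 2 libraries. With IgG the 7 transcripts lay between 12.9 and 23.2 CPM per kb.

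**Figure D3:**
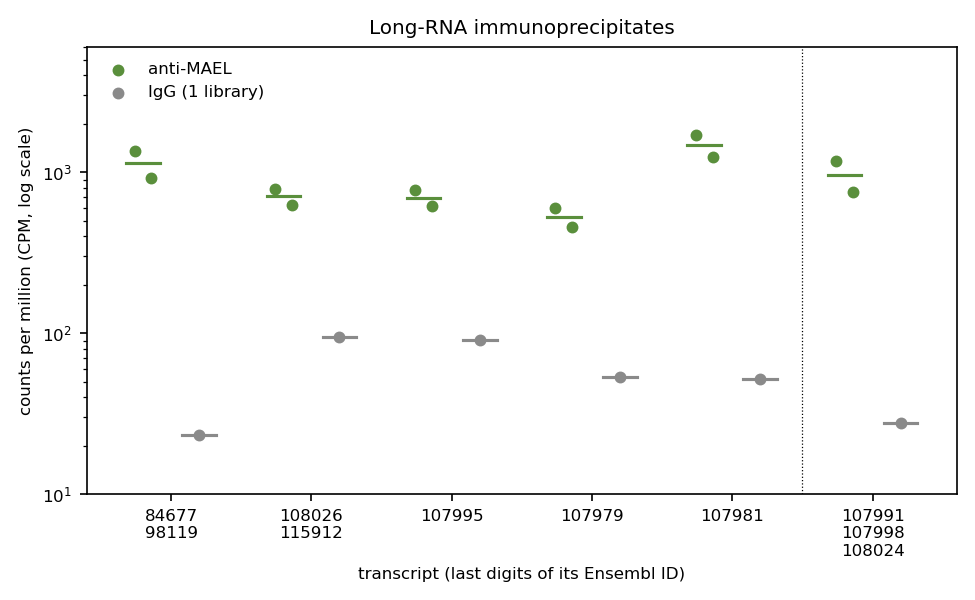
CPM levels (log scale) in 2 anti-MAEL long-RNA libraries (green, bar at the mean) and 1 IgG library (grey). The first 5 positions are the 7 transcripts, with identical copies drawn once, and the last, right of the dotted line, holds 3 related transcripts of 909 nt, for which the mean ratio to IgG was 34.4. Every green point lies above the grey one, by the most for the 550-nt pair.

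Short RNA in the anti-MAEL immunoprecipitate matched the same transcripts. In the single library of 15 to 50 nt, each copy of the 550-nt pair took 0.515% of all counts, the 963-nt transcript 0.674%, the 1295-nt transcript 0.127% and each transcript of the 1289-nt group 0.118%. They ranked between 16 and 45 among 37991 transcripts. Their CPM there was 28.6 to 94.3 times that in wild-type small RNA of the same length range. This compares a precipitate with total small RNA, and has no replicate and no IgG library of that size. Coding transcripts as a whole held 55849011 of 172728187 counts in that precipitate. In wild-type small RNA they held 2357893 of 44416966 counts in library a and 424903 of 7776989 in library b. Their share was thus larger in the precipitate, and the ratios were not compared with those of all coding transcripts. The ratios are therefore not read as specific to the transcripts described here. Whether both kinds of table count reads with the same use of strand is unknown here, and its part in these ratios was not tested. In the library of 50 to 150 nt, the shares were lower, 0.0571% for ENSMUST00000084677, 0.0730% for the 963-nt transcript, 0.0103% for ENSMUST00000108026 and 0.00908% for the 1295-nt transcript. Copies that share reads are counted once for each transcript in these shares.

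Small RNA matching the 7 transcripts was present in all 4 libraries of total small RNA. Levels are relative to all small RNA counts of a library. The 963-nt transcript took the most small RNA counts, with 510.8 and 478.9 CPM in Mael-/- and 239.9 and 222.2 CPM in wild type. ENSMUST00000084677 had 343.3 and 321.4 CPM in Mael-/- and 185.6 and 174.0 CPM in wild type, and its copy ENSMUST00000098119 had 389.4 and 332.0 CPM in Mael-/- and 122.1 and 105.7 CPM in wild type. ENSMUST00000108026 was lowest, with 22.4 and 23.0 CPM in Mael-/- and 12.9 and 12.1 CPM in wild type. ENSMUST00000115912, ENSMUST00000107995 and the 1295-nt transcript differed from each other by at most 8 counts in a library, and lay between 66.2 and 66.9 CPM in Mael-/- and between 22.9 and 26.7 CPM in wild type. Per kb of transcript, ENSMUST00000098119 had 210.9 ± 23.7 CPM in Mael-/- and 66.6 ± 6.80 in wild type (SD, n = 2 each), ENSMUST00000084677 had 194.4 ± 9.05 in Mael-/- and 105.1 ± 4.82 in wild type, and the 963-nt transcript had 147.8 ± 6.74 in Mael-/- and 69.0 ± 3.74 in wild type. Per kb, ENSMUST00000108026 had 5.49 ± 0.0999 CPM in Mael-/- and 3.02 ± 0.135 in wild type, so the shorter transcripts carried far denser small RNA in either genotype. As a share of the library, both Mael-/- values stood above both wild-type values for each of the 7, and the same held for 61.4% of 7811 coding transcripts with at least 20 small RNA counts in all.

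No member was called once the libraries were scaled to each other with TMM, a scaling that aims to set the bulk of features level. The fitted log2 fold changes lay between -0.33 and 0.50, with adjusted p-values from 0.520 to 0.932 (edgeR quasi-likelihood test, 2 libraries per genotype), and 0 of 7 had an unadjusted p under 0.05. DESeq2 called 0 of 7 too. Across the table of 9906 transcripts and piRNA loci, edgeR called 3.82% higher and 3.49% lower. ENSMUST00000098119 had a log2 fold change of 0.50 ± 0.503 (SE) and its copy ENSMUST00000084677 -0.29 ± 0.491. ENSMUST00000115912 had 0.21 ± 0.442 and its copy ENSMUST00000108026 -0.33 ± 0.415.

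The direction depended on the scaling. TMM factors were 1.18 and 1.97 in Mael-/- libraries and 0.579 and 0.742 in wild-type libraries, and with library totals in place of TMM the median of all features moved by 1.27 on the log2 scale. On that scale 6 of 7 members were called higher in Mael-/- (edgeR, adjusted p = 0.00328 to 0.0189), with log2 fold changes of 0.89 to 1.67, and the other one, ENSMUST00000108026, had 0.86 (adjusted p = 0.0597). The same fit called 2449 of 9906 transcripts and piRNA loci higher. Of the 6 members called, ENSMUST00000115912, ENSMUST00000107995 and ENSMUST00000107979 had nearly equal small RNA counts in each library, so they are close to 1 measurement. The median of the whole table was then 1.42, and 94.6% of all calls were higher, against 52.2% with TMM. With TMM, values also moved when 1 library was left out. ENSMUST00000084677 stood at -1.07 without Mael-/- replicate a, against -0.29 with all libraries. ENSMUST00000098119 stood at 1.06 without Mael-/- replicate b, against 0.50 with all libraries. Fits on library totals were not repeated with a library left out.

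Copies of equal size that could not be told apart in mRNA differed in small RNA, and their ratio within a library, which no scaling touches, differed between genotypes. ENSMUST00000084677 had 7513 and 1553 small RNA counts in Mael-/- libraries where ENSMUST00000098119 had 8521 and 1604, ratios of 0.882 and 0.968. In wild-type libraries the counts were 8245 and 1353 against 5425 and 822, ratios of 1.52 and 1.65. The first copy was thus the lower of the 2 in both Mael-/- libraries and the higher in both wild-type libraries. ENSMUST00000108026 stood at 0.338 and 0.344 of ENSMUST00000115912 in Mael-/- and at 0.483 and 0.514 in wild type.

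On the log2 scale the ratio of the 550-nt copies was -0.11 ± 0.0955 in Mael-/- and 0.66 ± 0.0814 in wild type (SD, n = 2 each), and that of the 4130-nt copies -1.55 ± 0.0164 in Mael-/- and -1.01 ± 0.0626 in wild type. The differences, -0.78 and -0.55, were larger than the spread between replicates, but with 2 libraries against 2 an exact two-sided permutation test cannot give a p below 0.333. Among 12 other pairs of coding transcripts with all 4 mRNA counts in common and at least 20 small RNA counts in each library, 3 had identical small RNA counts, and 0 shifted as far as either pair described here. Of the 12, 3 are the combinations of ENSMUST00000107991, ENSMUST00000107998 and ENSMUST00000108024, and the differences reached 0.47 in size. Only the 9 pairs that were not identical could show a shift. ENSMUST00000107991 and ENSMUST00000108024 had identical small RNA counts, so their ratios to ENSMUST00000107998 are the same comparison. In that comparison the genotypes did not overlap either, at 0.468 in size. The same held for another of the other pairs, at 0.466. In the anti-MAEL library of 15 to 50 nt the copies were level, with 888742 and 888724 counts for the 550-nt pair and 203414 and 203410 for the 4130-nt copies. The sources used here do not give whether small RNA and immunoprecipitate reads were counted with the same use of strand, and its part in this difference was not tested.

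**Figure D4:**
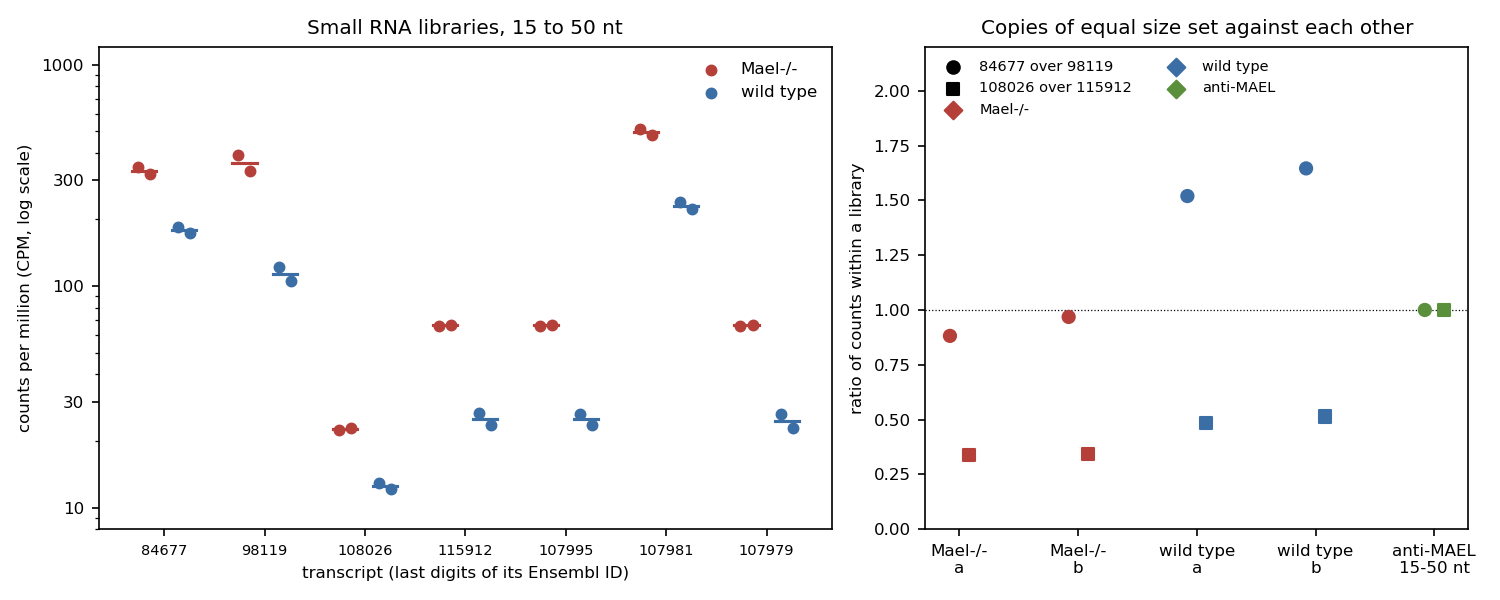
Left, small RNA levels of the 7 transcripts in CPM of all small RNA (log scale), with Mael-/- in red and wild type in blue, points for libraries and bars for means of 2. Right, the ratio of counts between copies of equal size within each library, circles for ENSMUST00000084677 over ENSMUST00000098119 and squares for ENSMUST00000108026 over ENSMUST00000115912. Circles lie at 0.882 and 0.968 in Mael-/- and at 1.52 and 1.65 in wild type, and both symbols meet at 1.00 in the anti-MAEL library.

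Outside the 7, the transcripts nearest to them across all 17 libraries were ranked, with the 7 left out of the ranking. Likeness was measured as the root mean square difference of log2(CPM + 0.5). The 550-nt pair lay nearest to ENSMUST00000107991 and ENSMUST00000108024, at 0.42, then to ENSMUST00000098130 at 0.60, to ENSMUST00000107998 at 0.72 and to ENSMUST00000163580 at 0.99. The nearest to the 963-nt transcript outside the 7 was ENSMUST00000107998, at 0.83. The longer transcripts had no neighbour outside the 7 as close, the nearest of those being ENSMUST00000098130, at 1.64 from the 1289-nt group and 1.43 from the 1295-nt transcript. ENSMUST00000107991, ENSMUST00000107998 and ENSMUST00000108024, all of 909 nt, had identical mRNA counts, with 6.96 and 15.0 CPM in Mael-/- and 50.9 and 58.5 CPM in wild type. Their footprints had a log2 fold change of -1.92 ± 0.696 that missed the threshold (edgeR, adjusted p = 0.0556), and this was not tested against the members' change.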

How the data were processed

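The values deposited by the authors are raw read counts per transcript or locus. The submitters' processing notes list build mm9 and, without a role for any of them, TopHat2 2.0.7, Bowtie2 2.0.6 and CASAVA 1.8. Per the labels' protocols, the kit for mRNA and long immunoprecipitated RNA does not keep strand. The sources used here do not give whether counting used strand or how reads matching several transcripts were assigned. The mRNA and footprint tables hold counts above 0 only among 18286 transcripts with a coding size, while in the small RNA and immunoprecipitate tables the size given is that of the whole transcript. Of 465 entries at 214 piRNA loci, the one with most counts was kept for each locus.

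Genotypes were compared within each assay over the whole table with edgeR 4.0.16 in R 4.3.3 (quasi-likelihood test, TMM scaling, filterByExpr, Benjamini-Hochberg adjustment, threshold 0.05). The fit was tried on simulated footprint and small RNA counts, not on mRNA. The features changed there had higher mean counts than the members' footprints, so the members' footprint depth was not covered. Standard errors are the log2 fold change over the root of the F statistic. DESeq2 1.42.0, other scalings and filters, left-out libraries, identical copies kept once and the replicate letter as a block were alternatives. Log2 ratios of levels outside the fits used 0.5 CPM as pseudocount. Intervals are exact, at 95%, and cover counting error only. Other steps used matplotlib 3.10.9, pandas 2.3.3, scipy 1.17.1 and numpy 2.4.6 in Python 3.11.15.

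The members, the 3 comparison transcripts and the tests were chosen with earlier results of these data known. Beyond the members, the rule named transcripts identical to one in mRNA, the 5 nearest in profile to each size group and the comparison transcripts; of the nearest, those closest are printed. Comparison of copy ratios with other identical pairs, and counts of groups that do not overlap, were added after the values were seen. The reference tables held 0 of the transcript IDs, so lists of cell type markers and related genes, and sequences, were not used here.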

Additional observations from a re-analysis of the deposited data

How the results depend on the processing

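Every footprint fall kept its direction in all alternatives that gave a value, and with a minimum mean of 5 CPM no member was left to fit. With DESeq2 the log2 fold change was -2.31 for ENSMUST00000084677, -2.29 for ENSMUST00000107981 and -2.77 for ENSMUST00000107979, none past the threshold. With the replicate block, values of -2.29 for ENSMUST00000084677 (edgeR, adjusted p = 0.0716) and -2.50 for ENSMUST00000107979 (adjusted p = 0.0515) lost their calls. Libraries of 1 letter are not stated to be paired: deviations of same-letter footprint libraries correlated at -0.10, those of small RNA at 0.71 and those of mRNA at 0.24. In small RNA with the block, 0 of 7 members were called, at log2 fold changes of -0.33 to 0.45 (edgeR, adjusted p = 0.135 to 0.766). These adjusted p-values ran lower than the 0.520 to 0.932 of the fit without a block. The block gave 771 higher and 1723 lower footprint calls over the table, a crossed pairing, chosen after seeing the data, 1450 and 2210, and the fit without a block 1102 and 1988; in small RNA the block gave 2318 higher and 1754 lower calls, against 378 and 346. The share of higher footprint calls was 35.7% with TMM, 49.8% with library totals and 20.5% with DESeq2. Leaving out 1 library moved the footprint value between -2.62 and -1.94 for ENSMUST00000084677, -3.92 and -2.91 for ENSMUST00000108026, -3.47 and -1.50 for ENSMUST00000107981, and -3.54 and -1.92 for ENSMUST00000107979.

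With library totals the small RNA log2 fold changes were 0.89 for ENSMUST00000084677, 1.67 for ENSMUST00000098119, 0.86 for ENSMUST00000108026, 1.41 for ENSMUST00000115912 and ENSMUST00000107995, 1.10 for ENSMUST00000107981 and 1.43 for ENSMUST00000107979. With coding transcripts as the library total, ENSMUST00000107981 had 0.0385. Without 1 library each, the ranges were -1.07 to 0.23 for ENSMUST00000084677, -0.37 to 1.06 for ENSMUST00000098119, -1.03 to 0.13 for ENSMUST00000108026, -0.50 to 0.69 for ENSMUST00000115912 and ENSMUST00000107995, -0.86 to 0.44 for ENSMUST00000107981 and -0.48 to 0.71 for ENSMUST00000107979. Over the alternatives, small RNA calls ran from 27 to 2449 higher and 51 to 1754 lower, and footprint calls from 372 to 1731 higher and 1441 to 2361 lower; the cause was not tested.

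The descriptive values moved in size only. The mRNA log2 fold change with library totals was -2.70 for ENSMUST00000084677, -2.54 for ENSMUST00000108026 and ENSMUST00000107995 and -2.19 for ENSMUST00000107981, and with relative log expression factors -3.13 for ENSMUST00000084677. Without 1 library each it ran from -3.12 to -2.94 for ENSMUST00000084677, -3.21 to -2.70 for ENSMUST00000108026, -3.20 to -2.69 for ENSMUST00000107995, -2.63 to -2.45 for ENSMUST00000107981 and -3.36 to -2.60 for ENSMUST00000107979. Anti-MAEL over IgG with TMM was 5.97 for ENSMUST00000084677, 3.29 for ENSMUST00000108026, 3.31 for ENSMUST00000107995, 5.21 for ENSMUST00000107981 and 3.69 for ENSMUST00000107979 (log2). With 1 anti-MAEL library it ran from 5.26 to 5.82, 2.73 to 3.06, 2.75 to 3.08, 4.57 to 5.02 and 3.08 to 3.49 for these in turn. The wild-type footprint to mRNA log2 ratio with a pseudocount of 2 CPM was -3.66 for ENSMUST00000084677 and -3.31 for ENSMUST00000107981, and with TMM -3.62 for the last. Footprint depth, with 1 to 5 Mael-/- counts per transcript and library, limits the precision of the footprint fold changes.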
